A study of Mus musculus with 16 samples.

Results

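Interferon-stimulated genes were followed in mouse tail intervertebral discs, the fibrocartilage cushions between vertebrae. The set is a fixed list of 37 gene symbols, and all 37 are among the 49315 genes of the deposited table. Membership was set by name with no cutoff on measured values, but the list was chosen with earlier results of these data known. The mice carried the Adam8EQ allele or were wild type, and the series title names the wild-type side as DBA. Adam8 is a cell-surface protease of the ADAM family. What the EQ allele changes, how the discs were injured, the time after injury and the ages of the mice are not given in the labels. Bulk RNA sequencing was done on 16 mice: 3 wild-type mice with intact discs, 4 wild-type mice with injured discs, 4 Adam8EQ mice with intact discs and 5 Adam8EQ mice with injured discs. In each animal 4 coccygeal discs were pooled, so a library is 1 mouse and p-values measure the spread between mice.

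Interferons are secreted antiviral cytokines. Type I interferons act through the Ifnar1 and Ifnar2 receptor chains, the kinases Jak1 and Tyk2, and a complex that includes Stat2 and Irf9 and binds the interferon-stimulated response element of its target genes. Interferon gamma acts through Ifngr1 and Ifngr2 on genes with gamma activated sites, and induces Irf1, guanylate-binding proteins and antigen presentation. The products of the target genes sense foreign nucleic acid, block viral replication and damp the signal again.

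Of the 37 members, 36 passed the filter on low values (at least 1 TPM, the length-scaled transcript share, in at least 3 libraries). The exception was Oasl1, which reached 1.37 TPM at most. Averaged over the 16 libraries, 21 members lay between 10 and 100 TPM, 10 between 1 and 10 TPM and 6 under 1 TPM. The depth implied by the TPM values was 10220228 to 24881886 reads per library. Summed over 8 markers of disc and cartilage, among them Acan and Col2a1, the level was 24696 to 33652 TPM in intact discs and 6182 to 24234 TPM in injured discs, so the labelled tissue was present in every library. Adam8 itself lay at 1.24 to 1.69 TPM in intact and 3.52 to 66.3 TPM in injured wild-type discs, and at 0.956 to 2.97 TPM and 16.2 to 264 TPM in mutants. These levels do not check the genotype labels, because the labels do not say whether the allele alters the transcript. Library names begin with D in all wild-type mice and with A8 or M in mutants, so naming and genotype cannot be told apart.

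The promoters of some members show the sequence through which these genes are known to be driven. RefSeq promoters (GRCm38.p6, 250 bases before the start of a gene) were matched for 28 of the 37 members by symbol. The core of the interferon-stimulated response element, spelled GAAA, any 2 bases, GAAA and read on either strand, was found in 14 of the 28 (50%), against 936 of 27025 promoters in all (3.46%). The gamma activated site, spelled TTC, any 3 bases, GAA, was found in 8 of the 28 (28.6%), against 2197 of 27025 (8.13%). All 6 interferon-inducible GTPase genes with a matched promoter held the response element, as did 2 of 3 IFIT genes. It was found in 2 of 3 other antiviral effectors, 2 of 4 OAS genes, 1 of 2 ISG15 system genes and 1 of 4 signalling factors. None of the 3 matched nucleic acid sensors held it, and neither did Ifi35, Ifi44 or Xaf1. Each match describes letters in this window and not a bound site. The start is RefSeq's: in GENCODE M21, 22 of the 30 bases shown for Gbp2, its core included, and 18 of the 75 shown for Gbp3 lie within an exon.

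The following stretches come from 4 guanylate-binding protein genes, each of which rose with injury in mutants. They lie close together on the plus strand of chromosome 3, at chr3:142620594-142620623 for Gbp2, chr3:142559969-142560043 for Gbp3, chr3:142496739-142496808 for Gbp5 and chr3:142530253-142530322 for Gbp7. All sequences are written 5′ to 3′ on the strand of the gene, with the response element core in capitals. Where it sits on the other strand it reads TTTC, any 2 bases, TTTC.
Gbp2: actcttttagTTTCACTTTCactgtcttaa
Gbp3: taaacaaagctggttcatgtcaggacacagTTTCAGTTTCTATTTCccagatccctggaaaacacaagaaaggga
Gbp5: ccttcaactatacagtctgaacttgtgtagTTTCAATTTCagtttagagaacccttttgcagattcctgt
Gbp7: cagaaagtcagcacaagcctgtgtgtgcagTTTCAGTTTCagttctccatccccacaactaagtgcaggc

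The same core stands in 4 members that are widely used as reporters of type I interferon and that were not called with injury. They are shown as a comparison with the called genes that hold the same letters. Ifit1 (chr19:34640755-34640843, plus strand) and Ifit3 (chr19:34583343-34583446, plus strand) hold 2 cores each, Isg15 (chr4:156200845-156200926, minus strand) holds 3 overlapping cores, and Rsad2 (chr12:26456533-26456602, minus strand) holds 1.
Ifit1: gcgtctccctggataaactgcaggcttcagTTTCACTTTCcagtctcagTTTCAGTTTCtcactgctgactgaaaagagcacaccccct
Ifit3: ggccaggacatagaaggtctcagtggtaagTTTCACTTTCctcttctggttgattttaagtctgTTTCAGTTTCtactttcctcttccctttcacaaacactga
Isg15: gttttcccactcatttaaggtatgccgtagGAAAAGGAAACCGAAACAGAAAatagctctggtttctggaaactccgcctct
Rsad2: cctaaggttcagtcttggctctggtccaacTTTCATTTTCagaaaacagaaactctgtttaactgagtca
Irf1 and Ifit2, which fell with injury in mutants, held no response element core in the window and 1 gamma activated site each. Gbp5 and Gbp7, which rose, held 2 gamma activated sites each, and Gbp2 and Gbp3 held 0. Igtp and Irgm1 also held the response element core, and their fitted log2 changes with injury in mutants were -0.56 and -0.39, neither called. The other called members, Zbp1, Rtp4 and Ifi27, had no matched promoter. Whether the letters go with the direction of change was not tested.

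The members did not move as a block. In Adam8EQ discs, injury was accompanied by higher Zbp1 and 4 guanylate-binding protein genes and by lower Rtp4, Ifit2, Ifi27 and Irf1. In wild-type discs no member passed the test with injury. In intact discs 35 of 36 tested members had lower fitted levels in mutants than in wild type, against 52% of all genes, without any one passing the test. The median difference there was -0.39, and -0.25 without intact wild-type mouse 1. The heat map shows each member in each mouse.

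**Figure D1:**
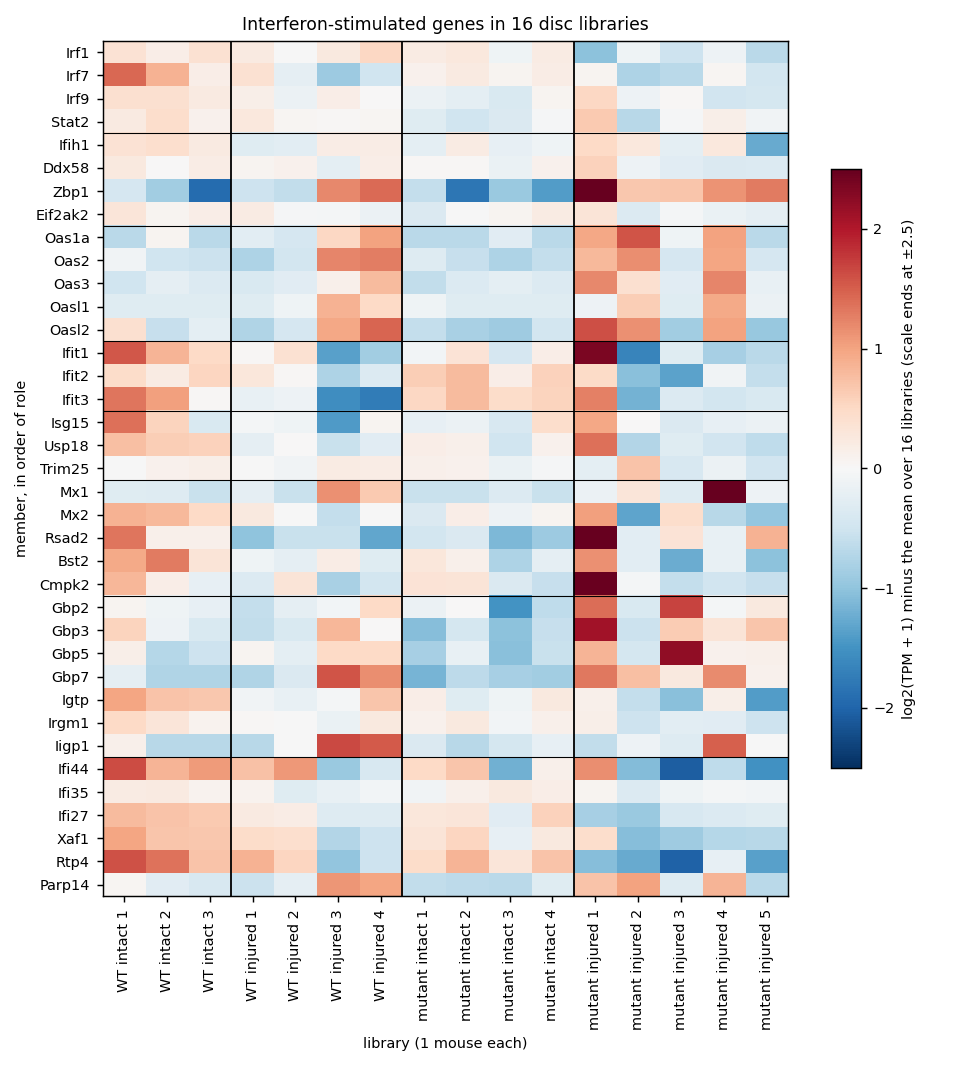
Level of each of the 37 members (rows, in order of role) in each of the 16 libraries (columns, 1 mouse each), as log2(TPM + 1) minus the mean of that gene over all libraries; the colour scale ends at ±2.5. Intact wild-type mouse 1 and injured mutant mouse 1 stand out as the reddest columns of their groups: they held the highest value of their group for 28 and 23 of the 37 members.

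The first question was what injury did in Adam8EQ discs. Of the 36 tested members, 9 passed the test in this comparison (25%), against 30.8% of all 24188 tested genes, so the share was near the background. The 5 that rose compare with 13.1% of all genes that rose, and the 4 that fell with 17.7% that fell. The median log2 change of the members was -0.03 and that of all tested genes -0.08. The tests are limma's moderated tests on log2(TPM + 1), with Benjamini-Hochberg adjustment over all tested genes. Calls were made at an adjusted p under 0.05, and each change is given ± SE. The groups did not overlap, with all injured mice above, for 4 of 36 members (Zbp1, Mx1, Rsad2 and Gbp7), against 12% of all genes, and with all injured mice below for 3 (Irf1, Ifi27 and Rtp4), against 15.3%. Mx1 and Rsad2 had no adjusted p under 0.05. In bulk tissue, fewer cells of a type and less RNA per cell cannot be told apart.

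Zbp1, a sensor of Z-form nucleic acid that can trigger necroptosis, rose the most. It lay at 1.49, 0.0891, 1 and 0.439 TPM in intact mutant mice 1 to 4 and at 22.8, 5.08, 5.12, 7.25 and 8.35 TPM in injured mutant mice 1 to 5. Every injured mutant was above every intact one, and mouse 1 was the highest. Zbp1 changed by a log2 value of 2.47 ± 0.55 (adjusted p = 0.003507). The other nucleic acid sensors among the members are Ifih1 (MDA5), Ddx58 (RIG-I) and Eif2ak2 (PKR). None of them passed the test, and their injured and intact ranges overlapped.

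The guanylate-binding proteins are large GTPases that act on the membranes of intracellular pathogens, and the 4 of them among the members rose. Of the others in the further list, Gbp6 and Gbp9 passed the filter and were not called, with log2 changes of -0.66 ± 0.36 (adjusted p = 0.1577) and -0.44 ± 0.22 (adjusted p = 0.1691). Gbp6 lay at 4.67 to 7.61 TPM in intact and 2.16 to 8.64 TPM in injured mutants. Gbp7 lay at 0.216, 0.728, 0.526 and 0.497 TPM in intact mutants and at 5.81, 3.62, 2.24, 5.19 and 1.95 TPM in injured mutants, with no overlap. Its log2 change was 1.61 ± 0.45 (adjusted p = 0.01183). Gbp3 lay at 3.47, 5.97, 3.62 and 5.31 TPM in intact and at 39.3, 5.50, 13.5, 10.8 and 14.2 TPM in injured mutants. Injured mouse 2 fell inside the intact range and mouse 1 lay far above the others. The log2 change was 1.42 ± 0.46 (adjusted p = 0.02058).

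Gbp2 was the most abundant of them, at 22, 24.7, 8.10 and 15.4 TPM in intact and 65.8, 18.7, 80.9, 23.7 and 29.2 TPM in injured mutants. The excess sat mainly in injured mice 1 and 3, and the groups overlapped. The log2 change was 1.14 ± 0.45 (adjusted p = 0.04506). Gbp5, which also promotes inflammasome assembly, lay at 0.366, 1.14, 0.178 and 0.654 TPM in intact and at 3.35, 0.798, 10.3, 1.61 and 1.65 TPM in injured mutants. Injured mouse 3 was the highest and mouse 2 lay inside the intact range. The log2 change was 1.23 ± 0.45 (adjusted p = 0.04212). The calls of Gbp2 and Gbp5 lay close to the threshold. Of 29 alternatives Gbp2 lost its call under 16, and of 28 Gbp5 lost it under 14. Without injured mutant 1 the adjusted p was 0.1056 for Gbp2 and 0.08173 for Gbp5, and without injured mutant 3 it was 0.1058 and 0.06985. The call of Gbp2 was also lost without intact mutant 1, 3 or 4, without intact wild-type mouse 1, 2 or 3 and without injured wild-type mouse 2 or 3 (adjusted p from 0.05047 to 0.1421). That of Gbp5 was lost without any one of the 4 intact mutants and without intact wild-type mouse 3 (adjusted p from 0.05049 to 0.1007). Gbp3 lost its call without intact mutant 1 (adjusted p = 0.0565). With a replicate block, the adjusted p was 0.08442 for Gbp2, 0.06028 for Gbp5 and 0.05558 for Gbp3.

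The other interferon-inducible GTPases among the members, Igtp, Irgm1 and Iigp1, belong to the immunity-related GTPases that attack vacuoles of parasites. None passed the test. Igtp lay at 4.51 to 7.05 TPM in intact and 1.55 to 6.47 TPM in injured mutants, and Irgm1 at 13.4 to 17 and 9.49 to 15.8 TPM. Iigp1 reached 3.53 TPM in injured mutant 4 and stayed at or below 0.603 TPM in the other mutants.

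Rtp4, a chaperone of membrane receptors and an interferon target, fell the most. It lay at 63, 83.1, 57 and 76 TPM in intact mutants and at 21.5, 18.6, 10.5, 39.4 and 17.2 TPM in injured mutants. All 5 injured mice were below all 4 intact mice. Its log2 level fell by 1.76 ± 0.41 (adjusted p = 0.003925). Ifi27, a small membrane protein of mitochondria and the nuclear envelope, lay at 95.4, 97.3, 64.7 and 117 TPM in intact and at 43.8, 40.7, 59.3, 61.9 and 63.9 TPM in injured mutants. The groups did not overlap, although intact mutant 3 lay just above the highest injured mouse. Its log2 level fell by 0.78 ± 0.19 (adjusted p = 0.006479).

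Ifit2, which binds foreign RNA and limits its translation, lay at 36.9, 41.9, 26.9 and 35.9 TPM in intact and at 33.6, 10.9, 8.81, 22.3 and 15.4 TPM in injured mutants. Injured mouse 1 lay inside the intact range and the other 4 below it. Its log2 level fell by 1.06 ± 0.34 (adjusted p = 0.01952), and the call was lost without intact mutant 2 (adjusted p = 0.05926). Irf1, the transcription factor that interferon gamma induces, lay at 18, 18.9, 14.4 and 18 TPM in intact and at 7.12, 14.3, 10.5, 14.1 and 9.30 TPM in injured mutants. The groups did not overlap, with 14.3 against 14.4 TPM at the border. Its log2 level fell by 0.64 ± 0.18 (adjusted p = 0.01446). With mutants limited to the 4 named A8, 2 members passed the test, 1 of them among the 9 called with all mutants. With mutants limited to the 5 named M, none did. The shares of all genes called were 15.6% and 3.16%, and the wild-type libraries stayed in both fits.

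**Figure D2:**
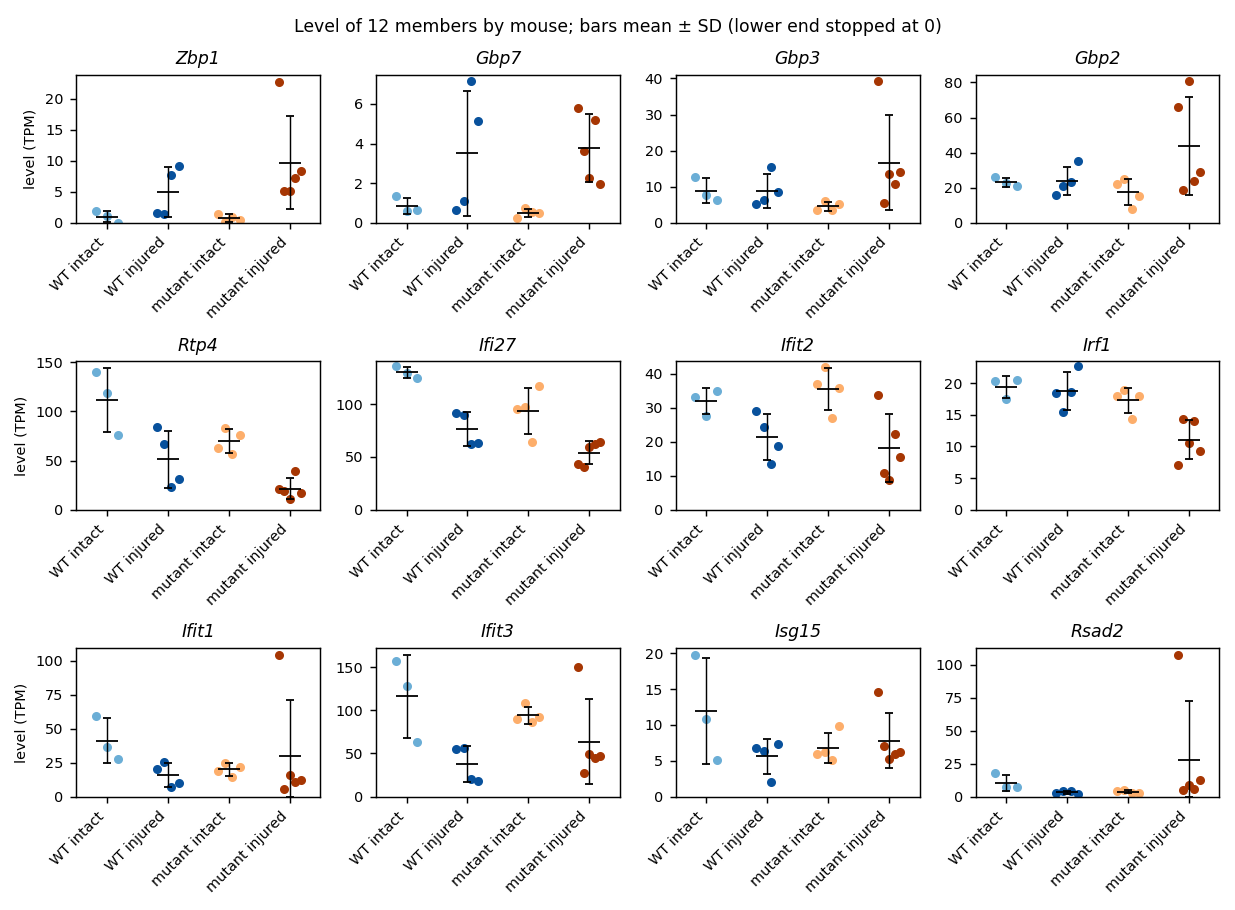
Level in TPM (linear axes from 0) of 12 members in each mouse, by group; points are mice, the short line is the group mean and the bar the SD, stopped at 0 below. Rtp4, Ifi27 and Irf1 show injured mutants below all intact mutants, Zbp1 and Gbp7 show them above, and in Ifit1, Ifit3, Isg15 and Rsad2 injured mutant 1 lies far above the other 4.

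The reporters most often read as a type I interferon signature did not pass the test with injury in mutants, and 1 mouse stood apart in them. Rsad2 (viperin), which makes a chain-terminating nucleotide, lay at 4.39, 4.72, 2.39 and 2.94 TPM in intact and at 107, 5.10, 8.35, 5.50 and 12.5 TPM in injured mutants. The injured mice were all above the intact ones, and the log2 change was 1.64 ± 0.71 (adjusted p = 0.06845). Without injured mutant 1 the change was 0.90 (adjusted p = 0.06098). Rsad2 passed the test with sample weights (adjusted p = 0.0392) and with library naming as a covariate (adjusted p = 0.04235). It also passed without injured mutant 2 (adjusted p = 0.04213) and without injured mutant 4 (adjusted p = 0.04334). Ifit1 lay at 18.6, 25, 14.4 and 22 TPM in intact mutants and at 104, 5.54, 15.7, 10.5 and 11.9 TPM in injured mutants. Injured mouse 1 was above all intact mice, mouse 3 was inside their range and the other 3 were below it. The fitted log2 change of -0.22 ± 0.67 (adjusted p = 0.8117) was therefore -0.87 without mouse 1 (adjusted p = 0.1065).

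Ifit3 lay at 89.9, 109, 86.4 and 92.3 TPM in intact and at 150, 27, 48.9, 45.2 and 47.6 TPM in injured mutants. Again injured mouse 1 was the highest and the other 4 were below every intact mutant. The log2 change was -0.81 ± 0.49 (adjusted p = 0.186), and without injured mutant 1 it was -1.17 and passed the test (adjusted p = 0.03392). Isg15, a ubiquitin-like modifier, lay at 5.89, 6.24, 5.08 and 9.84 TPM in intact and at 14.6, 7.00, 5.26, 5.90 and 6.22 TPM in injured mutants. The groups overlapped except for mouse 1, with a log2 change of 0.13 ± 0.41 (adjusted p = 0.8274), and -0.10 without that mouse. Usp18, which removes Isg15 and blocks signalling at Ifnar2, lay at 12.5, 12.1, 7.52 and 11.9 TPM in intact and at 30.2, 6.22, 8.67, 7.57 and 6.74 TPM in injured mutants. Its log2 change was -0.13 ± 0.36 (adjusted p = 0.7989), and without injured mutant 1 it was -0.51 and passed the test (adjusted p = 0.04335).

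Among the signalling factors, Stat2 and Irf9 belong to the complex that reads the response element. Stat2 lay at 25.3, 22.1, 24.1 and 31 TPM in intact and at 50.3, 19.1, 31, 35.1 and 29.4 TPM in injured mutants. Irf9 lay at 18.1, 16.9, 15.3 and 21.3 TPM in intact and at 29.4, 18.5, 20.5, 14.1 and 14.7 TPM in injured mutants. Both were highest in injured mutant 1, and both overlapped between groups. Their log2 changes were 0.30 ± 0.21 (adjusted p = 0.2709) and 0.08 ± 0.18 (adjusted p = 0.7761). Without injured mutant 2 the change of Stat2 was 0.47 and passed the test (adjusted p = 0.03599). Irf7, which amplifies interferon production, lay at 20.5, 22.3, 19.7 and 21.6 TPM in intact and at 19.7, 10.6, 11.5, 19.5 and 13.4 TPM in injured mutants. The log2 change of Irf7 was -0.51 ± 0.30 (adjusted p = 0.1788).

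Bst2 (tetherin), which holds budding virus at the cell surface, lay at 21.5, 19.2, 9.82 and 14.8 TPM in intact and at 39.8, 14.3, 6.78, 15.2 and 7.98 TPM in injured mutants. The groups overlapped and the log2 change was -0.17 ± 0.43 (adjusted p = 0.7682). Xaf1, which binds an inhibitor of apoptosis, lay at 69.5 to 117 TPM in intact mutants and at 109 TPM in injured mutant 1, and at 38 to 49.2 TPM in the other 4. The log2 change of Xaf1 was -0.82 ± 0.33 (adjusted p = 0.05247), and -1.07 without injured mutant 1 (adjusted p = 0.00903). Xaf1 also passed the test with a mean of at least 5 TPM required, with sample weights, with the replicate block and with voom. The same held without injured wild-type mouse 1, 2 or 3 and without intact mutant 3 (adjusted p from 0.01596 to 0.04884 over these fits). The OAS enzymes make the oligoadenylate messenger that activates RNase L. All 4 tested ones had higher fitted levels with injury (median log2 change 1.04) and none passed the test. Oasl2 lay at 1.02, 0.740, 0.649 and 1.22 TPM in intact and at 8.31, 5.77, 0.672, 5.13 and 0.590 TPM in injured mutants. Injured mice 1, 2 and 4 were high, and mice 3 and 5 were at the intact level or below it. Its log2 change was 1.08 ± 0.61 (adjusted p = 0.1615).

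The same comparison in wild-type discs gave no call among the 36 tested members, against 0.116% of all tested genes (28 genes; 0.107% higher and 0.00827% lower). At an unadjusted p under 0.05 there were 9 (25%), against 17.2% of all tested genes. The median log2 change of the members was -0.28, against 0.01 for all genes, and 26 of 36 were negative, against 48.8% of all genes. No member had all injured wild-type mice above all intact ones, against 9.22% of all genes. Of the 36, 10 had them all below, against 6.34%. These were Irf9, Ifih1, Ifit1, Ifit3, Usp18, Mx2, Rsad2, Bst2, Ifi27 and Xaf1.

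The IFIT genes lay lowest among the roles, with a median log2 change of -1.42. Ifit3 lay at 158, 128 and 63.8 TPM in intact wild-type mice 1 to 3 and at 54.7, 56.7, 20.5 and 17.8 TPM in injured wild-type mice 1 to 4. The groups did not overlap, and the log2 change was -1.70 ± 0.56 (adjusted p = 0.153). Ifit1 lay at 59.4, 36.1 and 27.9 TPM in intact and at 20.1, 25.7, 7.03 and 10.3 TPM in injured discs. Here too the injured mice were all lower, and the log2 change was -1.42 ± 0.77 (adjusted p = 0.3101). Ifit2 lay at 33.2, 27.5 and 35 TPM in intact and at 29.1, 24.2, 13.4 and 18.6 TPM in injured discs, with overlap, and its log2 change was -0.60 ± 0.39 (adjusted p = 0.385).

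Irf7 lay at 52.7, 35.4 and 21.2 TPM in intact and at 24.8, 16.1, 9.57 and 13 TPM in injured wild-type discs. Its log2 change was -1.14 ± 0.34 (adjusted p = 0.1371). Without injured wild-type mouse 1 it was -1.37 and passed the test (adjusted p = 0.04127). Ifi27 lay at 136, 130 and 125 TPM in intact and at 91.9, 89.4, 62.6 and 62.9 TPM in injured discs, clear of each other. Its log2 change of -0.78 ± 0.22 (adjusted p = 0.1328) was close to the -0.78 of the mutants, and the interaction was 0.00 ± 0.30. Rtp4 lay at 140, 119 and 76.1 TPM in intact and at 84.1, 66.7, 22.6 and 31.7 TPM in injured discs, and its log2 change was -1.25 ± 0.47 (adjusted p = 0.1898). Xaf1 lay at 159, 130 and 128 TPM in intact and at 111, 108, 48.1 and 55.3 TPM in injured discs, and its log2 change was -0.87 ± 0.38 (adjusted p = 0.235).

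Isg15 lay at 19.8, 10.8 and 5.13 TPM in intact and at 6.77, 6.37, 1.99 and 7.39 TPM in injured wild-type discs, with a log2 change of -0.90 ± 0.47 (adjusted p = 0.3089). Usp18 lay at 19.1, 17.3 and 17 TPM in intact and at 9.29, 11.1, 7.13 and 8.81 TPM in injured discs, all lower, with a log2 change of -0.91 ± 0.41 (adjusted p = 0.2568). Bst2 lay at 34.6, 44.2 and 21.9 TPM and at 16, 14.8, 20 and 13.9 TPM, also all lower, with a log2 change of -0.97 ± 0.48 (adjusted p = 0.2845). Isg15 differed from the other pair in that intact mouse 3 lay within the injured range. Rsad2 lay at 17.6, 7.04 and 7.08 TPM in intact and at 2.66, 4.02, 4.04 and 2.00 TPM in injured discs, and its log2 change was -1.39 ± 0.81 (adjusted p = 0.3442). Irf9 lay at 26.9, 26.8 and 23.8 TPM in intact and at 22.5, 18.1, 22.7 and 20.2 TPM in injured discs (log2 change -0.30 ± 0.20, adjusted p = 0.4466). Stat2 lay at 37.1, 43.3 and 34 TPM and at 37.7, 32.7, 32.2 and 32.5 TPM (log2 change -0.17 ± 0.24, adjusted p = 0.7229). Irf1 showed no such shift, at 20.3, 17.5 and 20.5 TPM in intact and 18.4, 15.4, 18.7 and 22.7 TPM in injured discs (log2 change -0.06 ± 0.20, adjusted p = 0.9106).

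The injured wild-type mice were split among themselves. In the library names mice 1 and 2 carry consecutive numbers, and mice 3 and 4 a later consecutive pair. The split and this numbering cannot be told apart. Zbp1 lay at 1.83, 1.07 and 0 TPM in intact and at 1.63, 1.47, 7.68 and 9.11 TPM in injured discs, so that mice 3 and 4 were high and mice 1 and 2 stayed within the intact range. The log2 change was 1.44 ± 0.63 (adjusted p = 0.2472). Gbp7 showed the same division, at 1.33, 0.616 and 0.622 TPM in intact and 0.627, 1.12, 7.14 and 5.13 TPM in injured discs (log2 change 0.99 ± 0.51, adjusted p = 0.3111). Oasl2 lay at 3.04, 1.04 and 1.58 TPM in intact and at 0.803, 1.28, 5.01 and 7.36 TPM in injured discs (log2 change 0.45 ± 0.69, adjusted p = 0.7398). The summed OAS level was 1.32 and 2.13 TPM in injured mice 1 and 2 and 11.2 and 15.1 TPM in mice 3 and 4. Parp14, a mono-ADP-ribosyltransferase, lay at 4.33 and 5.57 TPM in mice 1 and 2 and at 15.6 and 14.3 TPM in mice 3 and 4.

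In those same mice the summed IFIT level went the other way, at 104 and 107 TPM in mice 1 and 2 and at 41 and 46.7 TPM in mice 3 and 4. Gbp2 lay at 25.9, 22.6 and 21 TPM in intact and at 15.9, 20.8, 23.2 and 35 TPM in injured discs (log2 change -0.02 ± 0.51, adjusted p = 0.9909). Gbp3 lay at 12.8, 7.60 and 6.18 TPM and at 5.10, 6.24, 15.6 and 8.47 TPM (log2 change -0.05 ± 0.52, adjusted p = 0.9648). Gbp5 lay at 1.69, 0.473 and 0.701 TPM and at 1.54, 1.06, 2.41 and 2.44 TPM (log2 change 0.57 ± 0.51, adjusted p = 0.557). All 3 overlapped between intact and injured wild-type discs.

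**Figure D3:**
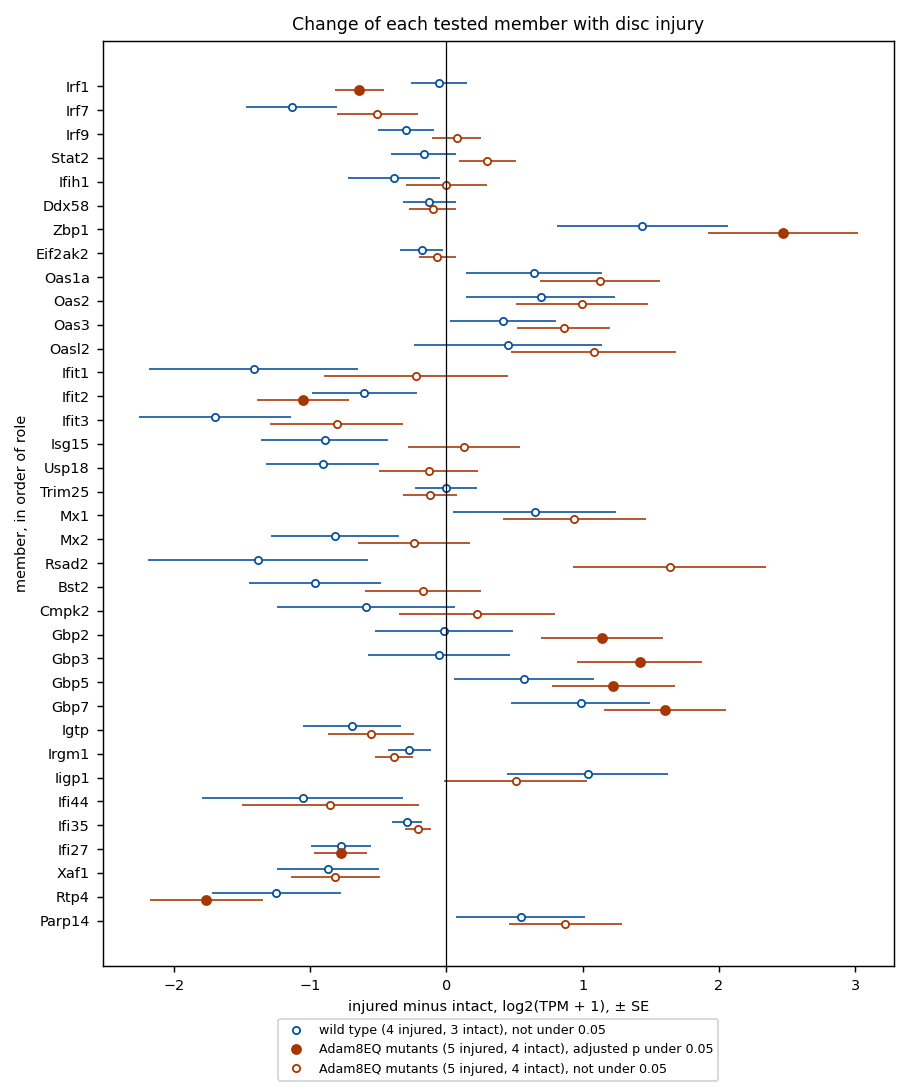
Fitted difference between injured and intact discs, in log2(TPM + 1) with SE bars, for each of the 36 tested members in wild type (blue) and Adam8EQ mutants (brown); filled points have an adjusted p under 0.05. Filled points are found in mutants alone: Zbp1, Gbp7, Gbp3, Gbp5 and Gbp2 to the right of 0, and Rtp4, Ifit2, Ifi27 and Irf1 to the left.

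Markers of some immune cells moved with injury in the same libraries. With injury in mutants 13.1% of all tested genes rose and 17.7% fell. Of 8 macrophage markers, none of them at 0 throughout, 6 rose in that comparison. Their summed level was 155 to 220 TPM in intact and 787 to 7700 TPM in injured mutants. In wild-type discs it was 164 to 199 TPM in intact mice, 253 and 383 TPM in injured mice 1 and 2, and 3515 and 2327 TPM in injured mice 3 and 4, the same mice that were high in Zbp1, Gbp7 and the OAS genes. Of the 6 tested neutrophil markers, 4 rose in mutants, with sums of 1.99 to 3.32 TPM in intact and 13.6 to 1014 TPM in injured mutants. The largest macrophage and neutrophil sums belonged to injured mutant 2, in which Gbp2, Gbp3 and Gbp5 lay in the intact range, while Zbp1 (5.08 TPM), Gbp7 (3.62 TPM) and the OAS sum (14.3 TPM) lay above it. Notochordal markers fell in 5 of 6 cases in mutants, from a sum of 6278 to 13688 TPM in intact to 73.4 to 6166 TPM in injured discs, and the lowest sum belonged to injured mutant 1. Plasmacytoid dendritic cells are the main blood source of type I interferon, and the sum over their list was 81.9 to 93.1 TPM in intact and 63.9 to 80.4 TPM in injured mutants. Tcf4, which other cells express too, reached 88.1 TPM, whereas Siglech, their defining marker, reached 0.89 TPM at most in any library. Of 9 T and NK cell markers 2 were tested and 0 were called with injury in mutants. The sum over all 9 was 2.02 to 2.32 TPM in intact and 3 to 9.19 TPM in injured mutants. Of 3 tested dendritic cell markers 2 rose and 1 fell. The part of any of these cell types in the changes above was not tested.

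The second question was what the allele did without injury. In intact discs no member passed the test between Adam8EQ and wild type, against 0.0165% of all genes (4 genes; 0.00413% higher and 0.0124% lower), and 6 members (16.7%) had an unadjusted p under 0.05, against 3.78% of all genes. The fitted difference was negative for 35 of 36 members, against 52% of all tested genes, with Ifit2 at 0.14 as the exception. The median log2 difference of the members was -0.39, against -0.01 for all genes. Of the 36, 13 had all mutants below all wild-type mice, against 3.41% of all genes, and none had them all above, against 2.77%. The 13 were Irf9, Stat2, Ifih1, Ifit1, Usp18, Mx2, Rsad2, Bst2, Gbp3, Igtp, Ifi44, Ifi27 and Xaf1. This comparison and that of injury in wild type share the 3 intact wild-type mice, so levels in those mice enter both.

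Stat2 and Irf9 were both lower in each intact mutant than in any intact wild-type mouse. Stat2 lay at 37.1, 43.3 and 34 TPM in wild type and at 25.3, 22.1, 24.1 and 31 TPM in mutants, a log2 difference of -0.56 ± 0.24 (adjusted p = 1). Irf9 lay at 26.9, 26.8 and 23.8 TPM in wild type against 18.1, 16.9, 15.3 and 21.3 TPM in mutants, a log2 difference of -0.51 ± 0.20 (adjusted p = 1). Igtp lay at 12.3, 10.1 and 9.78 TPM against 6.60, 4.51, 5.26 and 7.05 TPM, a log2 difference of -0.78 ± 0.36 (adjusted p = 1). Ifi27 lay at 136, 130 and 125 TPM against 95.4, 97.3, 64.7 and 117 TPM, a log2 difference of -0.50 ± 0.22 (adjusted p = 1).

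Intact wild-type mouse 1 was the highest of its group for 28 of the 37 members and intact mutant 3 the lowest of its group for 22. Without wild-type mouse 1 the median log2 difference of the members was -0.25, and 32 of 36 stayed negative, against 47.4% of all genes. Without mutant 3 the median was -0.31 and 35 stayed negative. The summed level of 5 skeletal muscle markers, 136 to 539 TPM in intact wild-type and 83.8 to 97.9 TPM in intact mutant discs, differed between the same groups. So did that of 5 erythroid markers, at 265 to 728 and 68.1 to 273 TPM. No gene of these marker lists passed the test, and both sums were highest in mouse 1 of the intact wild-type mice. Macrophage sums were 164 to 199 TPM in intact wild type and 155 to 220 TPM in intact mutants. The part of muscle or blood tissue in the member values was not tested.

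**Figure D4:**
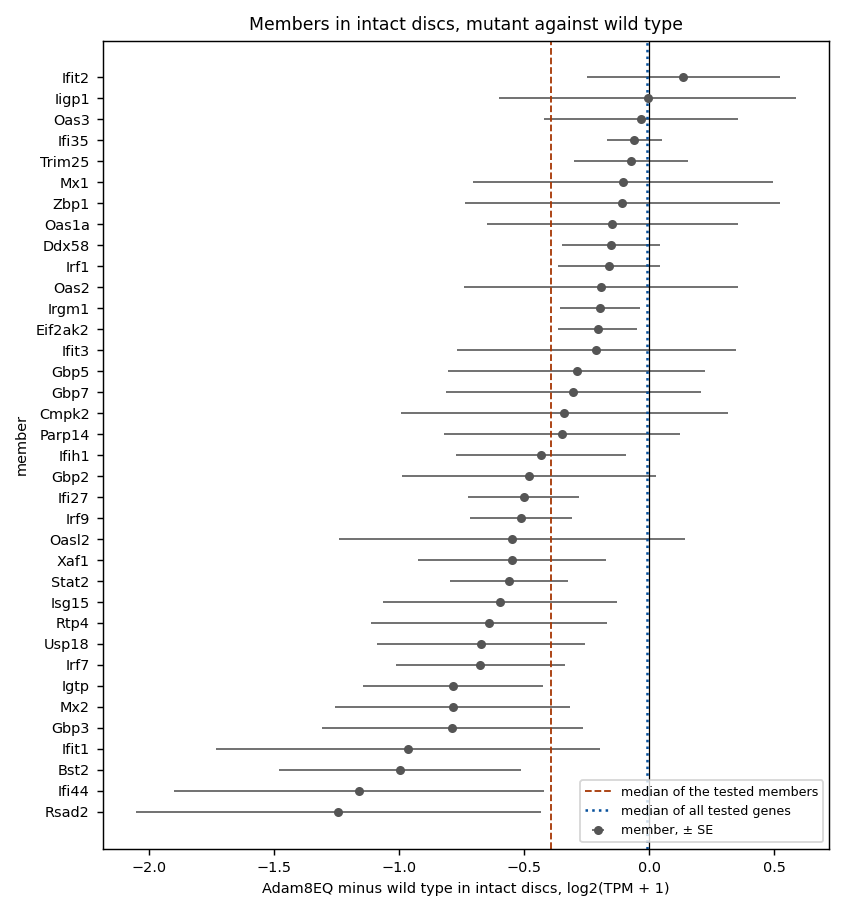
Fitted difference between intact Adam8EQ and intact wild-type discs, in log2(TPM + 1) with SE bars, for the 36 tested members in order of size. The dashed line is the median of the members (-0.39) and the dotted line the median of all tested genes (-0.01); Ifit2 (0.14) lies to the right of 0 and the other 35 to the left, several of them by less than their SE.

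The third question was whether injured discs differed between genotypes. No member passed the test, against 0.918% of all genes (222 genes; 0.19% higher and 0.728% lower), and 4 (11.1%) had an unadjusted p under 0.05, against 20.3% of all genes. The median log2 difference of the members was -0.03, against -0.09 for all genes. Rsad2 was the single member with all mutants above all wild-type mice, against 0.905% of all genes, and Irf1 the single member with all mutants below, against 3.86%. Irf1 lay at 15.4 to 22.7 TPM in injured wild-type and 7.12 to 14.3 TPM in injured mutant discs, a log2 difference of -0.74 ± 0.18 (adjusted p = 0.05957). It passed the test under 6 of 29 alternatives, among them without injured wild-type mouse 3 (adjusted p = 0.03475), without injured mutant 2 (adjusted p = 0.02531) and without injured mutant 4 (adjusted p = 0.03626). Rsad2 lay at 2.00 to 4.04 TPM in injured wild-type and 5.10 to 107 TPM in injured mutant discs, a log2 difference of 1.78 ± 0.71 (adjusted p = 0.1489), and of 1.04 without injured mutant 1 (adjusted p = 0.1388). Rtp4 lay at 22.6 to 84.1 TPM and 10.5 to 39.4 TPM, a log2 difference of -1.16 ± 0.41 (adjusted p = 0.1176), which passed the test without injured wild-type mouse 3 (log2 difference -1.48, adjusted p = 0.02686). Ifi27 lay at 62.6 to 91.9 TPM and 40.7 to 63.9 TPM, a log2 difference of -0.50 ± 0.19 (adjusted p = 0.1489).

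Whether the response to injury differed between genotypes was tested directly as the interaction. No member passed and neither did any of the 24188 tested genes (0%). In limma's test 3 members (8.33%) had an unadjusted p under 0.05, against 8.18% of all genes. The interaction, coded as the change in mutants minus the change in wild type, was positive for 30 of 36 members. Of all tested genes 58.2% were negative. The median of the members was 0.41 on the log2 scale against -0.08 for all genes. Without injured mutant 1 the median of the members was 0.24, with 26 of 36 positive. Without intact wild-type mouse 1 the median of the members was 0.35, with 26 of 36 positive, against 60.6% of all genes negative. With mutants named M alone it was 0.19 with 23 of 35 positive, and with those named A8 alone 0.72 with 29 of 34 positive. Rsad2 had the largest value, 3.02 ± 1.08 (adjusted p = 0.5034), and 2.29 without injured mutant 1 (adjusted p = 0.5317). Gbp3 had 1.47 ± 0.69 (adjusted p = 0.5813). Irf1 lay on the other side, at -0.58 ± 0.27 (adjusted p = 0.604). The calls made in mutants and not in wild type are therefore not shown to differ between genotypes.

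The rest of the pathway was read from lists of ligands, receptors, transducers, sensors and further targets. Of 12 interferon genes in the table, Ifna1, Ifna2, Ifna5, Ifnb1 and Ifnl2 were listed at 0 in all 16 libraries. Ifng was listed above 0 in injured mutant 2 alone, at 0.244 TPM. Ifnk, an interferon best known from skin, was the one ligand that passed the filter, at 0 to 1.27 TPM in intact and 1.19 to 4.51 TPM in injured wild-type discs and at 0.367 to 2.34 and 0.380 to 6.58 TPM in mutants, and no test called it. Cxcl10, a chemokine that interferons induce, lay at 0 in all 4 intact mutants and at 1.15, 0.392, 0.816, 3.57 and 0 TPM in injured mutants, and was not called. Cxcl9 reached 1.76 TPM and Cxcl11 reached 0.238 TPM at most.

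The counts that follow are for injury in mutants, where 13.1% of all tested genes rose, 17.7% fell and 30.8% were called in all. Of 6 receptor genes 3 rose and none fell. Ifnar1 lay at 30.2 to 37.8 TPM in intact and 42 to 81.1 TPM in injured mutants (log2 change 0.68 ± 0.20, adjusted p = 0.01366). Ifngr2 lay at 14.5 to 16.8 and 20.2 to 60 TPM (log2 change 0.96 ± 0.32, adjusted p = 0.02432). Il10rb, the chain shared by interferon lambda and other cytokines, rose by 1 ± 0.34 on the log2 scale (adjusted p = 0.02475). Of 10 transducers 5 rose: Ptpn6 by 2.75, Irf8 by 2.27, Irf5 by 1.03, Jak2 by 0.47 and Jak1 by 0.41. Ptpn6, Irf8 and Irf5 are most abundant in blood cells.

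Of 11 sensors and adaptors 6 rose with injury in mutants and none fell, against 13.1% and 17.7% of all genes. The largest log2 changes were 3.12 ± 0.58 for Tlr7 (adjusted p = 0.001241), which senses single-stranded RNA in endosomes, 1.83 for Tlr9 and 1.75 for Myd88. Of 17 antigen presentation genes 8 rose and 3 fell, against the same background. The largest rises were those of the class II genes H2-Aa, with a log2 change of 4.82 ± 0.91 (adjusted p = 0.001258), and Cd74, with 4.19 ± 0.96 (adjusted p = 0.003342). The class I route was divided. The heavy chains H2-K1 and H2-D1 rose by 0.96 ± 0.28 (adjusted p = 0.01288) and 0.73 ± 0.24 (adjusted p = 0.02482) on the log2 scale. Tap2, Tapbp and Psme2, which serve peptide supply and loading, fell by 0.61, 0.53 and 0.35. H2-Aa lay at 9.07, 0.671, 2.21 and 0.992 TPM in intact and at 37.3, 121, 51.5, 328 and 76.8 TPM in injured mutants. In wild type it lay at 1.24 to 7.25 TPM in intact and at 16.2, 28.7, 274 and 134 TPM in injured discs, with mice 3 and 4 again the high ones.

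Of 29 tested further interferon-stimulated genes 9 rose and 3 fell, a share of 41.4% against 30.8% of all genes. Slfn2 rose by 3.48 ± 0.71 (adjusted p = 0.001879) and Ifitm3, which blocks virus entry at membranes, by 2.83 ± 0.50 (adjusted p = 0.0009647). Lgals3bp fell by 1.07 ± 0.13 (adjusted p = 0.0002513), from 113 to 151 TPM in intact to 48.5 to 72.2 TPM in injured mutants. It was the one gene of these lists called between genotypes in injured discs, where its log2 level was lower in mutants by a difference of -0.74 ± 0.13 (adjusted p = 0.02707). No gene of these lists was called with injury in wild type or between genotypes in intact discs.

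**Figure D5:**
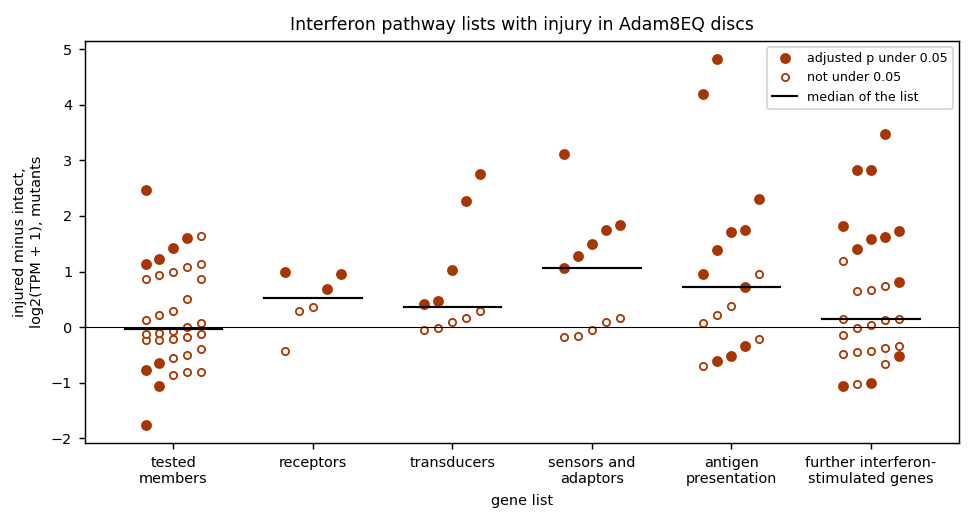
Fitted difference between injured and intact Adam8EQ discs, in log2(TPM + 1), for the tested members and 5 further lists; each point is a gene, filled where the adjusted p is under 0.05, and the line is the median of the list. The medians are -0.03 for the members, 0.145 for further interferon-stimulated genes and 0.36 for transducers. They are 0.52 for receptors, 1.07 for sensors and adaptors and 0.73 for antigen presentation, and H2-Aa is the highest point at 4.82.

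Exons of 12 members overlap those of another annotated gene (GENCODE M21, GRCm38), and the use of strand in counting is not given in the sources used here. Among the called members these are Irf1, Gbp2, Gbp7 and Rtp4, with the longest overlap of 637 bases between Gbp7 (chromosome 3, 142530342 to 142550149) and Gm43802. Guanylate-binding proteins, OAS and IFIT genes also have close paralogs side by side, so the split of reads among them is uncertain. Low members rest on few reads: Zbp1 ranged from 0 to 467 implied reads per library, Gbp5 from 4 to 223 and Isg15 from 5 to 64.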

How the data were processed

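Tail disc RNA of 16 mice was sequenced. Per the labels' protocols, ribosomal RNA was depleted before library preparation, while the molecule field reads polyA RNA. The authors deposited 1 table of TPM values per gene and mouse. Per the submitters' processing notes, bcl2fastq 2.20 and GRCm38 were used. The aligner, the counting method and the annotation are not given in the sources used here. Groups came from the sample titles, since the genotype field of the wild-type samples is cut short. A shared mouse number in 2 groups names separate animals, and the fit was unpaired.

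Of the 49315 genes, 24188 reached 1 TPM in 3 or more libraries. These entered limma 3.58.1 (R 4.3.3; lmFit, eBayes with trend) on log2(TPM + 1). One fit held all 16 libraries with a mean per group. The p-values were adjusted by the Benjamini-Hochberg method over all tested genes. Implied reads are TPM times GENCODE M21 exon length over the value of 1 read. Of the values under 20 reads, 94.0% to 94.9% per library came within 0.05 of a whole number. The script was tested on simulated data.

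Members, lists and tests were chosen with earlier results of these data known. Named in full were 12 set members (Isg15, Ifit1, Ifit3, Irf1, Irf7, Irf9, Stat2, Bst2, Usp18, Gbp2, Oasl2, Rsad2) and up to 3 called members per direction and contrast. The other members named were chosen after their values were seen. Of the other lists, up to 6 called genes per contrast could be named. The 29 alternatives covered pseudocount, filters, scaling, variance model, samples, library naming, a replicate block and each mouse left out. A fit with voom on implied reads was added after seeing the data. One gene of the transducer list is not reported here.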

Additional observations from a re-analysis of the deposited data

Results flagged for a closer look

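Each of the 37 members, and their mean, was checked in the 3 groups of 4 or 5 mice for a mouse whose gap to its nearest neighbour took up more of the group's range than Dixon's 95% critical value allows. Of 114 such checks 17 gave a mouse that stood apart, and chance gives about 1 in 20. Injured mutant 1 accounted for 6 of them, all at the high end: Ddx58 at 37.3 TPM, Isg15 at 14.6 TPM, Usp18 at 30.2 TPM, Rsad2 at 107 TPM, Cmpk2 at 36.4 TPM and Xaf1 at 109 TPM. Cmpk2, a mitochondrial nucleotide kinase, lies next to Rsad2 on chromosome 12. The same library had the lowest notochordal marker sum of the series, 73.4 TPM, and the highest implied depth, 24881886 reads, and the part of either in these values was not tested.

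Other injured mutants stood apart at the high end for Trim25 (58.8 TPM, mouse 2), Mx1 (7.26 TPM, mouse 4) and Iigp1 (3.53 TPM, mouse 4). Among intact mutants, Usp18 was low in mouse 3 (7.52 TPM) and Parp14 high in mouse 4 (5.29 TPM). Oas1a (0.314 TPM, mouse 3), Oasl1 (0.155 TPM, mouse 1) and Mx1 (0.162 TPM, mouse 3) were each the one value above 0 in that group, which the check marks by construction, so that the 1 in 20 does not apply to them. Among injured wild-type mice, Stat2 was high in mouse 1 (37.7 TPM), Isg15 low in mouse 3 (1.99 TPM) and Igtp high in mouse 4 (9.95 TPM).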

How the results depend on the processing

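With injury in mutants, 2 members were called with mutants named A8 alone, 1 of them shared with the main 9. With mutants named M alone 0 were called, and both fits had fewer mice. The shares of all genes called there were 15.6% and 3.16%. Leaving out single mice gave 6 to 12 calls, against 22.2% to 33.3% of all genes. With the replicate block there were 9 calls, 6 of them shared with the unblocked 9, against 25.6% of all genes. Same-numbered mice did not deviate together (correlations -0.2172 to 0.1508 over 21 pairs). With injury in wild type, leaving out single mice gave 0 to 1 calls. The 1 call came without injured wild-type mouse 1, where 1.93% of all genes were called. The median of the members was -0.6041 when a mean of 5 TPM was required. Between genotypes in injured discs there was 1 call with that filter, 1 with sample weights and 1 with voom. The shares of all genes called were 1.7%, 4.42% and 2.29%. Leaving out single mice gave 0 to 2 calls, against 0.0292% to 9.5% of all genes. The 2 calls came without injured wild-type mouse 3, which also gave the 9.5%. The median of the members was 0.3137 with mutants named A8 alone. The cause was not tested. In intact discs no member was called between genotypes under any alternative, and 24 to 35 fitted differences were negative, with 25 to 37 members tested.

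Of 1471 values of single members under alternatives, 1380 kept direction and call, 46 lost the call, 24 gained one and 21 changed sign. All sign changes were in changes that were not called. With injury in mutants they were Isg15 (-0.2591 named M), Ifit1 (0.2185 named A8), Irf9 (-0.1469 named M, -0.005223 with sample weights), Bst2 (0.2312 named A8, 0.005788 with the replicate block) and Usp18 (0.1781 named A8). In wild type Gbp2 changed to 0.003957 with the replicate block. The remaining sign changes came from leaving out 1 mouse. Over those fits the injury change in mutants ranged from -0.09873 to 0.3022 for Isg15, -0.8677 to 0.1349 for Ifit1, -0.08023 to 0.1726 for Irf9, -0.5396 to 0.05768 for Bst2 and -0.5149 to 0.01275 for Usp18. In wild type it ranged from -0.1461 to 0.03193 for Irf1, -0.2159 to 0.1475 for Gbp2 and -0.3421 to 0.2157 for Gbp3. Depth limits the members under 1 TPM, which rest on few implied reads.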
